A study of Mus musculus with 12 samples.

Results

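Autophagy, the delivery of cytoplasm and organelles to lysosomes inside a double membrane, is run by a conserved set of proteins, and 36 of their genes were followed here in mouse brain perivascular macrophages. These are the macrophages that lie along the vessels of the brain. The 36 were taken by gene symbol: initiation kinases, the lipid kinase complex, lipid transfer and scaffold proteins, the conjugation enzymes, the LC3 and GABARAP proteins, and cargo receptors with their kinase. All 36 were among the 17358 genes measured.

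RNA libraries were made by SMART-seq2, which copies whole transcripts from very little input. There were 5 libraries from aged (18 months) and 7 from young adult (3 months) mice, given as C57BL/ in the series text. The series text calls the libraries biological replicates. No genotype, treatment, sex, sort marker or batch is given for either group, and nothing says whether animals were pooled. In bulk libraries, fewer cells of a type and less RNA per cell cannot be told apart.

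Autophagy starts with the Ulk kinase complex, which activates a phosphatidylinositol 3-kinase complex built on Vps34 (Pik3c3) and Beclin 1. A cup-shaped membrane then grows with lipid carried by Atg2 and Atg9, and enzymes related to the ubiquitin system attach LC3 and GABARAP proteins to it. Cargo receptors such as p62 (Sqstm1) bind those proteins and bring in what is to be degraded. In macrophages part of the same machinery also marks single-membrane phagosomes and restrains inflammatory signalling.

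Every LC3 and GABARAP protein is made with a tail that Atg4 proteases cut off behind a glycine, and that glycine is what Atg7 and Atg3 join to the membrane lipid. The 3′ ends of the 5 coding sequences are shown because these genes dominated the measurements. They were read from GENCODE vM21 transcripts (GRCm38), 5′ to 3′ up to and including the stop codon, with the glycine codon in capitals.
Gabarap: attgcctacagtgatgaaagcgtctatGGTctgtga
Gabarapl1: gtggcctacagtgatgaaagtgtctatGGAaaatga
Gabarapl2: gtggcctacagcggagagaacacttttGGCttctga
Map1lc3a: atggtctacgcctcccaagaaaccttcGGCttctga
Map1lc3b: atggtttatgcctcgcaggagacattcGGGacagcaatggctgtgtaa
The glycine codon was number 116 of 117 in the 3 GABARAP genes, number 120 of 121 in Map1lc3a and number 120 of 125 in Map1lc3b. Map1lc3b thus had 5 codons behind it and each of the others 1. The 5 coding sequences were between 67.0% and 78.8% identical over aligned bases, and the longest run that any pair shared was 17 bases, between Gabarap and Gabarapl1. Pseudogene copies were not searched for.

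Library totals ran from 23214836 to 30628787 counts, where 3 counts equal between 0.0979 and 0.129 CPM, counts scaled to the library total. The 12 perivascular macrophage markers, among them Mrc1, Cd163 and Lyve1, summed to between 11514 and 18324 normalised CPM in aged and between 12449 and 21940 in young libraries (normalised CPM are CPM after TMM scaling). The 9 microglia markers were present too, at summed levels between 3825 and 5696 in aged and between 3615 and 7007 in young libraries. Aged libraries 1, 3 and 4 stood apart on the first principal component of all tested genes, at scores between 76.1 and 105 against −47.6 to −10.8 for the other libraries. On the second component they did not lie together, with aged 1 the lowest of all 12 (−121), aged 3 at −2.37 and aged 4 the highest (86.8). They also had the fewest genes with at least 5 counts among aged libraries (8028 to 8244, against 9438 and 9478 in aged 2 and 5 and 8059 to 10274 in young libraries).

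None of the autophagy genes passed the test between aged and young libraries. Of the 36, 35 passed the filter on low counts, and 0 of them had an adjusted p under 0.05 by edgeR's quasi-likelihood test, where 1 of all 9550 genes tested did (0.0105%). DESeq2 also called 0 of the 35, beside 1.27% of all genes, and edgeR with legacy=FALSE 0, beside 0.398%. At an unadjusted p under 0.05 there were 2 members, Atg3 and Tbk1, both with higher means in aged libraries, or 2 of 35 beside 5.97% of all genes tested (3.85% higher and 2.12% lower in aged libraries). No member had groups that did not overlap, beside 0.597% of all genes (0.325% with aged above young and 0.272% with aged below). The log2 fold changes, positive where aged libraries were higher, were positive for 15 members and negative for 20, with a median of −0.17, beside −0.01 over all genes tested. On the authors' length-scaled values the division was 11 to 24, with medians of −0.18 for members and −0.17 for all genes. The members were chosen with earlier results of these data known.

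The LC3 and GABARAP genes held most of the autophagy transcripts. In FPKM, the authors' length-scaled values, which allow levels of different genes to be compared, they made up 79.7% ± 4.09 (SD, n = 12) of the summed level of the 36 genes, with a range of 72.2% to 84.8%. Gabarap was the highest at 942 ± 142 FPKM (SD, n = 12), followed by Map1lc3b at 281 ± 105, Gabarapl2 at 151 ± 42.8, Map1lc3a at 35.5 ± 16.7 and Gabarapl1 at 7.99 ± 6.65. Gabarap lay above Map1lc3b in 12 of 12 libraries. Map1lc3b lay above Gabarapl2 in 10, the exceptions being aged 4 and young 5, so that these neighbours were not separated everywhere. Gabarapl2 lay above Map1lc3a in 12 of 12 libraries. The length behind an FPKM was not fixed for every gene: the length implied by count and FPKM differed by 1.11 times between libraries in the median member, and by up to 2.62 times (Atg5), with Atg16l2, Atg2b and Atg16l1 also above 2.

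Within the family, Gabarap took 69.4% ± 4.43 of the summed FPKM in the 5 aged libraries and 65.0% ± 5.05 in the 7 young ones (SD). Map1lc3b took 17.6% ± 4.73 and 20.8% ± 5.39, and Gabarapl2 9.74% ± 1.54 and 11.1% ± 2.21. These differences were smaller than the SD within a group, and the shares of each gene overlapped between the groups. Map1lc3a held between 0.647% and 5.22% and Gabarapl1 at most 1.43% in any library.

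**Figure D1:**
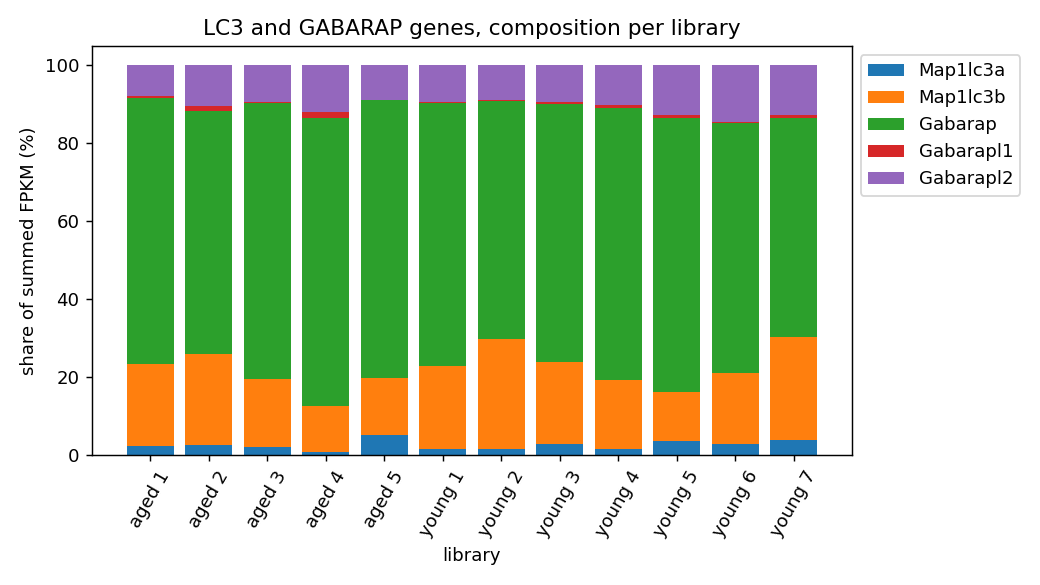
Share of each LC3 or GABARAP gene in the summed FPKM of the 5 genes (bars, in percent) for each library. Gabarap holds between 56.2% and 74.2% of every bar, and Map1lc3b between 11.8% and 28.3%.

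Gabarap (Entrez 56486, chromosome 11 from 69991370 to 69994949 of GRCm38) encodes a protein that closes the autophagosome membrane and recruits fusion factors. It was at 965, 1023, 1020.0, 1335 and 798 normalised CPM in aged libraries 1 to 5, and at 587 (lowest), 1121 (median) and 1290.4 (highest) in young libraries. The highest value was in aged 4 and the lowest in young 4, and the groups overlapped through most of their range. The edgeR fit gave a log2 fold change of 0.03 ± 0.21 (SE, adjusted p = 0.999), the smallest SE among members.

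Map1lc3b (Entrez 67443, chromosome 8 from 121590438 to 121598760) encodes LC3B, whose lipid-bound form is the usual marker of autophagosomes. It was at 462, 602, 388, 328 and 254 normalised CPM in aged libraries 1 to 5, and at 233, 588 and 840.3 (lowest, median and highest) in young ones. Young libraries 4 and 5 were the lowest of all 12, and young 2 the highest. The log2 fold change was −0.36 ± 0.32 (SE, adjusted p = 0.999, edgeR).

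Gabarapl2, also called GATE-16, was at 97.5, 149, 116, 187 and 87.0 normalised CPM in aged libraries 1 to 5, and at 74.3, 146 and 221 (lowest, median and highest) in young ones. Young 4 was the lowest and young 6 the highest. Map1lc3a, encoding LC3A, was at 30.2, 37.2, 26.4, 10.8 and 54.2 in aged libraries and at 12.1, 41.7 and 52.6 in young ones. Gabarapl1, a close relative of Gabarap, was at 7.04, 32.9, 10.01, 41.3 and 0 in aged libraries 1 to 5, and at 0.370, 10.3 and 19.1 in young ones. It was the only gene of the family with a library at 0 counts, aged 5, and 570 of its 2013 exonic bases lie opposite 1700101I11Rik. The log2 fold changes of these 3 were −0.23 ± 0.30, −0.19 ± 0.60 and 0.75 ± 1.28 (SE).

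The conjugation enzymes were less abundant, and 1 of them came nearest to an age difference. Atg3, the E2-like enzyme that transfers LC3 and GABARAP to phosphatidylethanolamine, was the fourth most abundant member per length, at 62.0 ± 17.0 FPKM (SD, n = 12). It lies on chromosome 16 from 45158829 to 45188538 (Entrez 67841). Atg3 was at 95.5, 163, 135, 134 and 99.5 normalised CPM in aged libraries 1 to 5 and at 53.1, 74.3 and 104 (lowest, median and highest) in young libraries. Aged 2, 3 and 4 lay above all young libraries, and aged 1 and 5 lay above all but young 1. The means were 125 ± 28.2 (SD, n = 5) and 78.4 ± 16.7 (SD, n = 7), with a log2 fold change of 0.68 ± 0.29 (SE), an unadjusted p of 0.031 and an adjusted p of 0.702 by edgeR's quasi-likelihood test. The log2 fold change stayed between 0.57 and 0.74 on leaving out each library in turn, and was 0.75 without aged libraries 1, 3 and 4. The unadjusted p did not stay under 0.05. It ran from 0.0245 (DESeq2) to 0.0886 (edgeR without aged replicate 2), with adjusted p between 0.439 and 1.0 over all alternatives.

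Atg5 and Atg12 encode the partners of a covalent conjugate that acts with Atg16l1 as the E3-like ligase. Atg5 averaged 62.0 ± 37.2 normalised CPM over aged and 69.1 ± 27.0 over young libraries (SD), with the highest value, 116, in aged 1 and the lowest, 26.9, in aged 5. Atg12 was at 0.0804, 112, 145, 62.0 and 45.1 in aged libraries 1 to 5 and between 3.30 and 78.2 in young ones, so aged libraries held both its lowest and its highest value. Atg16l1 was under 5 counts in 3 of 5 aged libraries and in 2 of 7 young ones. Its relative Atg16l2 had the same numbers of libraries under 5 counts.

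Atg10, the E2-like enzyme that joins Atg12 to Atg5, was at 104 normalised CPM in aged 1 but at 0.2502 in aged 3 and 0 in aged 4. Young libraries all held it, between 17.5 and 83.6. Atg7, the E1-like enzyme that activates both conjugation branches, was low throughout (2.65 ± 2.80 against 0.983 ± 1.67 normalised CPM, aged against young), and was under 5 counts in 1 of 5 aged and 5 of 7 young libraries. Of the Atg4 proteases, which trim LC3 and GABARAP at the glycine shown above, Atg4b was at 16.0 ± 14.0 against 25.5 ± 18.6 normalised CPM (aged against young), Atg4c at 10.7 ± 13.04 against 16.6 ± 8.64 and Atg4d at 3.83 ± 6.52 against 4.37 ± 5.45. Atg4d has 1405 of its 7264 exonic bases opposite Kri1. Of the 10 conjugation genes 4 had positive and 6 negative log2 fold changes (median −0.17), and 0 passed by the edgeR test over all genes.

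The 4 cargo receptors and Tbk1 showed no shared direction, with 3 positive and 2 negative log2 fold changes (median 0.18). Sqstm1, which encodes the ubiquitin-binding receptor p62, was at 26.6, 85.6, 90.2, 3.45 and 66.4 normalised CPM in aged libraries 1 to 5, and at 25.5, 71.7 and 119 (lowest, median and highest) in young libraries. Aged 4 was far below every other library, while aged 2 and 3 lay among the high young ones. The fitted log2 fold change was −0.26 ± 0.62 (SE, adjusted p = 0.999, edgeR) and 0.22 without aged libraries 1, 3 and 4. GENCODE places 580 of its 3356 exonic bases opposite Mrnip, and in these unstranded libraries reads there cannot be assigned to either gene.

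Tax1bp1, a ubiquitin-binding receptor that also limits NF-kB signalling, was at 149, 136, 143, 43.0 and 58.0 normalised CPM in aged libraries 1 to 5 and at 44.1, 76.6 and 192 (lowest, median and highest) in young ones. Nbr1, a receptor related to p62, was at 30.1, 29.4, 45.9, 5.08 and 20.8 in aged libraries and at 0, 35.7 and 46.1 in young ones. Its single library at 0 was young 1. Optn, encoding optineurin, a receptor for ubiquitin-coated bacteria and mitochondria, was at 0, 13.7, 0.100, 0 and 61.2 in aged libraries 1 to 5 and at 0, 2.47 and 31.5 in young ones. Aged 5 held most of the aged signal of Optn. The log2 fold changes were 0.18 ± 0.42, −0.17 ± 1.02 and 0.79 ± 1.95 (SE).

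Tbk1 (Entrez 56480, chromosome 10 from 121546455 to 121586794) encodes a kinase that phosphorylates optineurin and p62 and also drives type I interferon signalling. It was at 109, 46.1, 142, 139 and 49.5 normalised CPM in aged libraries 1 to 5, and at 17.7, 55.7 and 70.0 (lowest, median and highest) in young libraries. Aged 1, 3 and 4 lay above all young libraries, and aged 2 and 5 lay below the young median. The means were 97.1 ± 46.8 (SD, n = 5) and 51.0 ± 16.8 (SD, n = 7), with a log2 fold change of 0.93 ± 0.42 (SE), an unadjusted p of 0.0428 and an adjusted p of 0.791 by edgeR's quasi-likelihood test. The high libraries were the 3 that stood apart on the first principal component. Without them, with only aged 2 and 5 left in the aged group, the log2 fold change was −0.10. The libraries left out were those with the high values, so this fall followed from their removal. Adjusted p ran from 0.323 to 1.0 over all alternatives.

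**Figure D2:**
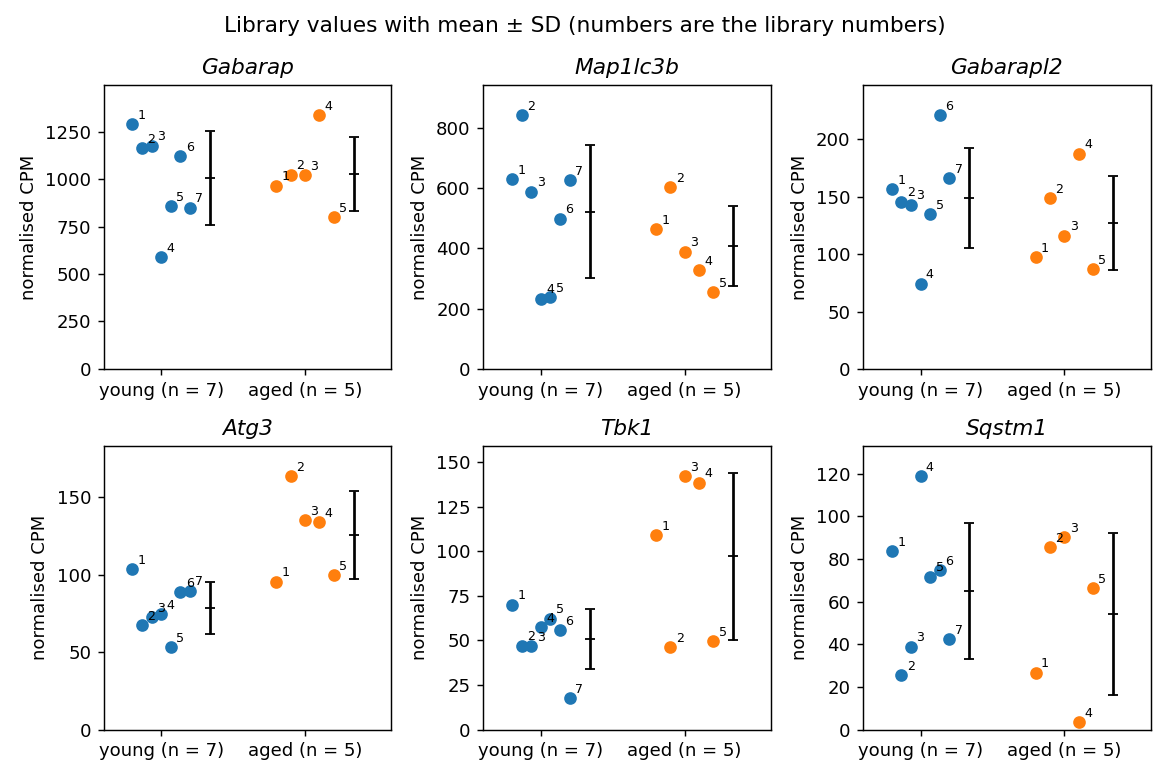
Normalised CPM of 6 autophagy genes in each young (blue) and aged (orange) library, labelled with the library number, with the mean and SD of each group beside the points. Aged libraries 1, 3 and 4 carry the higher Tbk1 values (109, 142 and 139), whereas for Gabarap, Map1lc3b, Gabarapl2 and Sqstm1 the groups overlap through most of their range.

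Markers of other cells and of handling also differed among these libraries. The 8 choroid plexus markers summed to between 257 and 1314 normalised CPM in aged and between 63.2 and 177 in young libraries. The 8 dissociation genes, such as Fos and Jun, summed to between 14451 and 19419 in aged and between 9489 and 17291 in young libraries. Summed levels of the 6 endothelial markers were at most 4.32 in aged (aged 2) and 27.7 in young libraries (young 2), with medians of 0.067 and 0.074. The part of these levels in the values of Atg3 and Tbk1 was not tested.

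Of 33 RefSeq promoter windows (GRCm38.p6) that matched 30 of the 36 members, 5 held the E-box CACGTG on either strand, or 15.2%, beside 7.15% of all 32851 windows of the same 300 bases. CACGTG is the core of the motif bound by Tfeb and its relatives, transcription factors of lysosome and autophagy genes. The 5 genes were Atg3, Atg5, Atg7, Atg14 and Tbk1. Of these, Atg3 and Tbk1 had an unadjusted p under 0.05, and Atg5, Atg7 and Atg14 did not (0.738, 0.410 and 0.848, edgeR). A link between the motif and age was not tested. The longer palindrome TCACGTGA, which contains that core, was in the window of Atg3 only and in 0.974% of all windows. The forkhead core GTAAACA was in 0 of the member windows and in 3.65% of all, and the antioxidant core TGACNNNGC was in those of Atg13, Map1lc3b, Tax1bp1 and Ulk2, or 12.1% against 12.4% of all. Rb1cc1, Becn1, Pik3c3, Atg12, Atg16l1 and Map1lc3a had no entry. All motifs were searched on both strands. A match is a description of the letters and not of binding.

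The windows of Atg3 and Tbk1 are shown because these genes came nearest to an age difference, and that of Gabarap because it was the most abundant member. Each runs from 250 bases before the annotated start to 30 bases after it, on the gene's strand, with CACGTG in capitals. The Atg3 window is chr16:45158579-45158858 (plus strand), that of Tbk1 chr10:121586765-121587044 (minus strand) and that of Gabarap chr11:69991120-69991399 (plus strand).
Atg3: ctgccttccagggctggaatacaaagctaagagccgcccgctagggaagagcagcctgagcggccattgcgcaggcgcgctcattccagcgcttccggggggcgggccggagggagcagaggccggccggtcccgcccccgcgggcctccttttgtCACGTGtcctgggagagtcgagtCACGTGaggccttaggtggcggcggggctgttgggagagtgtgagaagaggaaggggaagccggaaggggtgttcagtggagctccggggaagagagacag
Tbk1: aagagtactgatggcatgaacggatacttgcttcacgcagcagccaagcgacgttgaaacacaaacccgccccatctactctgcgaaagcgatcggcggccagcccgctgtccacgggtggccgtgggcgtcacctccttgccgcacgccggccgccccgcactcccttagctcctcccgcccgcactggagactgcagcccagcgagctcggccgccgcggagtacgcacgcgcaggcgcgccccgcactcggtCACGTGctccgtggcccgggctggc
Gabarap: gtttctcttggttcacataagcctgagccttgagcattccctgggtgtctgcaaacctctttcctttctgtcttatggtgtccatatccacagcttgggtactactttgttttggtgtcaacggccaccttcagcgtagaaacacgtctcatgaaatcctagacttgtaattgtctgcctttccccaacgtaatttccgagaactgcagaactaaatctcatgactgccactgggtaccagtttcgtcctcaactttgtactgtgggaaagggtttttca
The first bases of the matches lay 94 and 71 bases before the start of Atg3 and at base 6 of the Tbk1 transcript. The Gabarap window held none of the 4 motifs.

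The initiation kinases and their scaffold were uneven between libraries. Ulk2, a serine/threonine kinase that starts autophagosome formation, was the most abundant of the 5 per length (18.9 ± 10.05 FPKM, SD, n = 12) and was at 37.5, 88.3, 217, 127 and 196 normalised CPM in aged libraries 1 to 5, against 21.0, 96.0 and 144 (lowest, median and highest) in young libraries. Its paralog Ulk1 was at 0, 4.86, 0.05, 17.8 and 12.1 in aged libraries and at 0 in 3 of 7 young ones. The log2 fold changes of Ulk2 and Ulk1 were 0.57 ± 0.45 and −0.11 ± 1.95 (SE). Ulk1 was at 1.77 ± 1.83 FPKM over the 12 libraries, so per length the mean of Ulk2 was the higher one.

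Rb1cc1, encoding the large scaffold FIP200, was at 29.1 ± 26.8 against 15.2 ± 12.4 normalised CPM (aged against young). Atg13, the adaptor that links FIP200 to the kinases, was under 5 counts in 3 of 5 aged and 3 of 7 young libraries, and its highest values, 47.2 in young 2 and 21.8 in aged 2, each stood far above the rest of their group. Atg101, which stabilises Atg13, was at 0.684, 4.32, 0.05, 0.0479 and 18.0 in aged libraries 1 to 5, and at 0.376, 19.2 and 30.97 (lowest, median and highest) in young ones. All but 1 of the young libraries lay above all aged libraries but aged 5, and the log2 fold change was −1.90 ± 1.46 (SE, adjusted p = 0.999, edgeR). It was −3.73 without aged replicate 5 (edgeR adjusted p = 0.629) and −0.65 without aged libraries 1, 3 and 4 (adjusted p = 1.0). The 5 log2 fold changes were positive for 2 and negative for 3 (median −0.11). All 5 subunits reached 5 counts together in 2 of 12 libraries, aged 2 and young 7.

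In the lipid kinase complex, Becn1, which encodes the regulatory subunit Beclin 1, was the most abundant per length (27.8 ± 12.1 FPKM, SD, n = 12). It was at 12.99, 32.1, 39.8, 76.5 and 59.8 normalised CPM in aged libraries 1 to 5 and at 26.2, 58.5 and 90.6 (lowest, median and highest) in young libraries. Aged 1 was the lowest of all 12, and the log2 fold change was −0.47 ± 0.49 (SE, adjusted p = 0.999, edgeR). GENCODE places 3104 of the 7065 exonic bases annotated for Becn1 opposite Cntd1, so its level is uncertain in unstranded libraries.

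The catalytic subunit Pik3c3 was at 15.5 ± 13.4 against 18.9 ± 23.3 normalised CPM and its membrane anchor Pik3r4 at 7.56 ± 13.5 against 4.65 ± 5.53, with 31.1 in aged 4 alone. Atg14 and Uvrag, which replace each other in the complex and direct it to autophagosomes or to endosomes, were at 8.18 ± 10.2 against 10.1 ± 12.3 and at 30.1 ± 26.6 against 25.7 ± 16.1. Per length Uvrag was higher than Atg14, at 8.61 ± 6.71 against 2.80 ± 3.31 FPKM over the 12 libraries, a difference smaller than the SD of Uvrag but larger than that of Atg14. Ambra1, a positive regulator of the complex, was at 0 in 4 of 5 aged libraries and 1 of 7 young ones, and at most 5.30 normalised CPM anywhere. All 6 genes reached 5 counts in 1 aged and 3 young libraries. Their log2 fold changes were positive for 2 and negative for 4 (median −0.29). Uvrag has 1589 of its 9035 exonic bases opposite Gm45187, where the same uncertainty holds.

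The membrane growth genes were low per length, none with a mean above that of Wipi2. Wipi2, which binds the lipid product of the kinase complex and recruits Atg16l1, was the most abundant of them per length at 2.29 ± 2.58 FPKM (SD, n = 12). It was at 0.121, 9.55, 0.350, 18.1 and 3.45 normalised CPM in aged libraries 1 to 5, and at 0.395, 6.62 and 33.2 (lowest, median and highest) in young ones. Its relative Wipi1 had 943 counts in young 2, 5 in aged 5 and 0 in the other 10 libraries, and was the member that did not pass the filter. The lipid transfer proteins Atg2a and Atg2b were at 7.25 ± 13.7 against 6.06 ± 9.29 and at 2.80 ± 3.48 against 9.003 ± 7.87 normalised CPM. Atg9a, the scramblase of the seed vesicles, was at 3.22 ± 4.38 against 2.71 ± 4.63. The 4 tested genes had 2 positive and 2 negative log2 fold changes (median −0.35), from −1.68 ± 1.80 for Atg2b to 0.26 ± 1.89 for Atg2a (SE). GENCODE places 1832 of the 5762 exonic bases of Atg9a within Gm29253 on the same strand, so its reads cannot be told apart there.

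**Figure D3:**
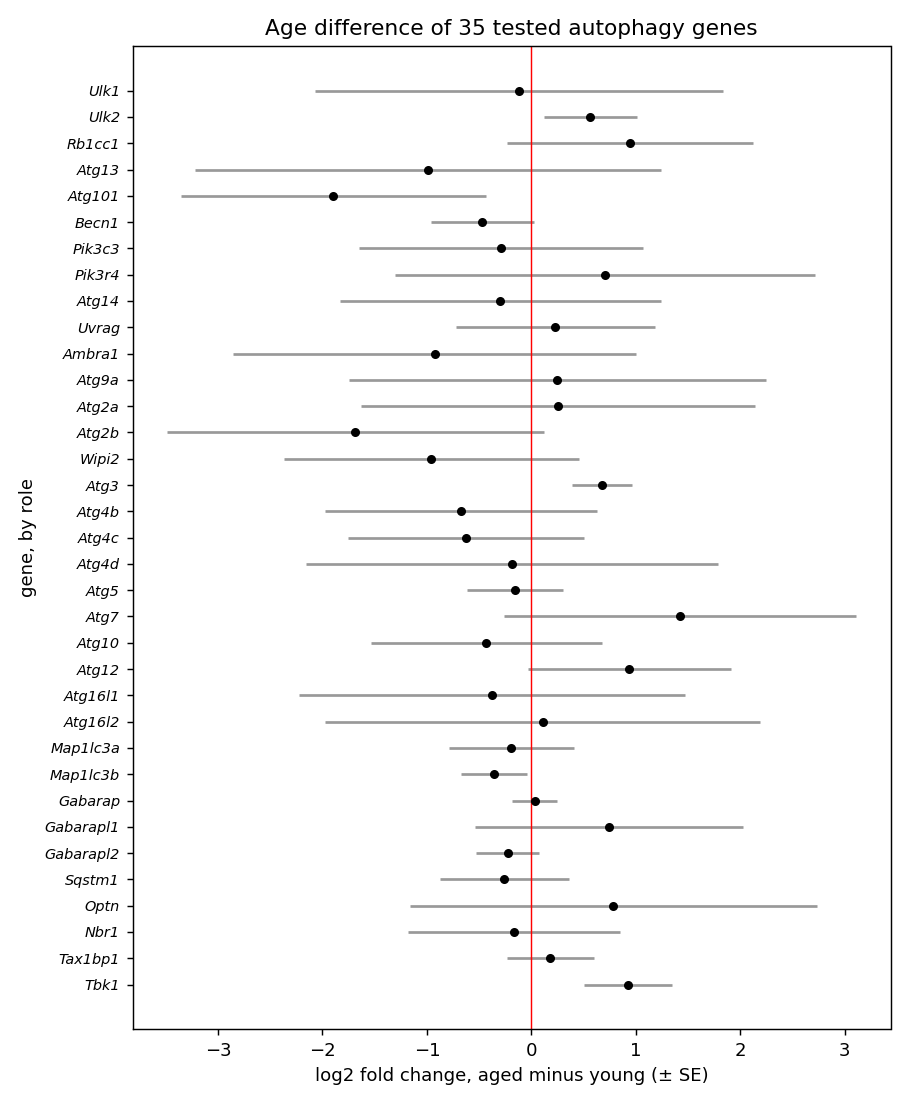
Log2 fold change (aged minus young, points) with its SE (bars) for the 35 tested members, ordered by role. Gabarap has the narrowest bar (0.03 ± 0.21), and Atg3 (0.68 ± 0.29) and Tbk1 (0.93 ± 0.42) lie farthest from 0 relative to their SE.

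Most abundant members were present in every library and most scarce ones were not. With at least 5 counts as presence, 13 of 36 members were present in all 12 libraries, 10 in 10 or 11, 12 in 6 to 9, and Wipi1 in 2. Of the 14 members with a mean of at least 10 FPKM, 11 were present in all 12, against 2 of the 22 below it (Uvrag and Atg4c). Over all genes tested 47.0% were present in all 12 libraries, and of the tested members 37.1%. The coefficient of variation over the 12 libraries ran from 0.215 for Gabarap, 0.301 for Gabarapl2 and 0.327 for Atg3 to 1.98 for Atg13 and 3.45 for Wipi1. Within young libraries its median was 0.729 over tested members and 0.728 over all genes tested, and within aged ones 0.978 and 0.866.

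**Figure D4:**
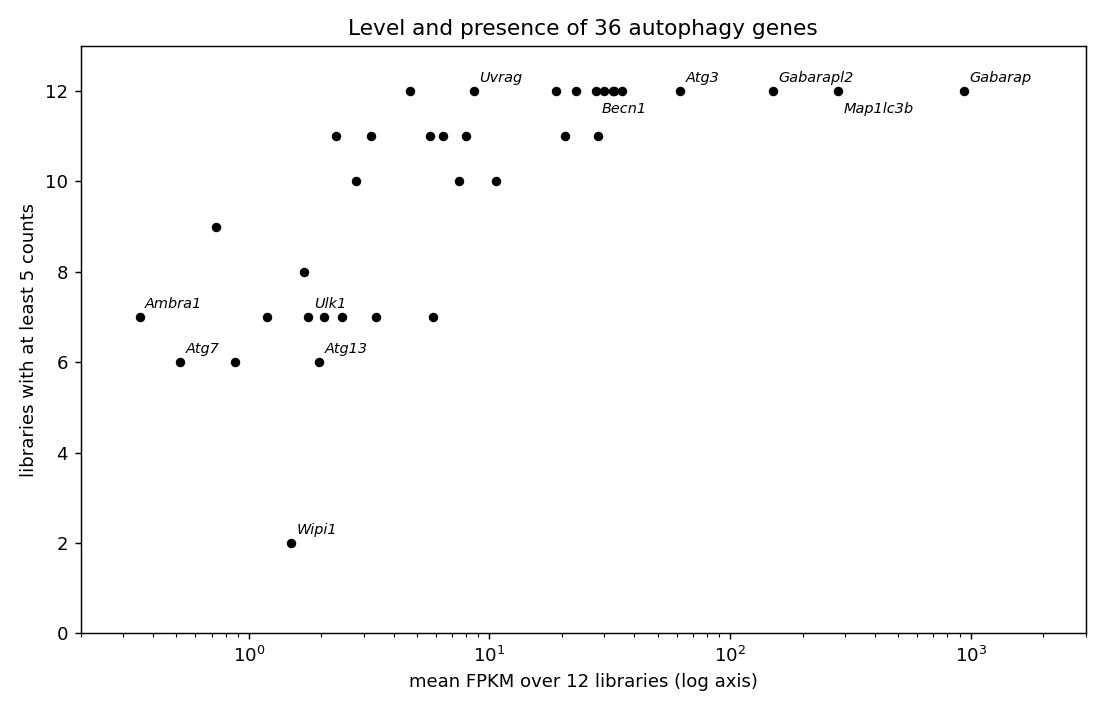
Number of libraries with at least 5 counts (vertical axis) against the mean FPKM over 12 libraries (horizontal log axis) for the 36 members (points). The 8 most abundant members are in 12 of 12 libraries, and Wipi1 (1.5 FPKM) is in 2.

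The number of members present per library was 25 in aged 1, 23 in aged 3 and 24 in aged 4, against 32 in both aged 2 and aged 5 and between 27 and 33 in young libraries. The 3 aged libraries that stood apart were therefore the 3 lowest of 12. For all genes they held between 8028 and 8244 with at least 5 counts, and young 1, with 8059 genes, had 27 members present. The part of the number of detected genes in these counts was not tested.

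Genes that act on the pathway from outside the 36 were counted from a list of 72 names, of which 65 were tested. None passed by the main edgeR test on all 12 libraries, beside the 0.0105% above. How many of the list passed under the alternatives is not reported here. At an unadjusted p under 0.05 there were 4 of 65, beside 5.97% of all genes in either direction. All 4 had higher means in aged libraries, beside 3.85% of all genes in that direction. The division was 25 positive to 40 negative (median −0.13). Of all genes tested, 49.5% had a positive log2 fold change. Autophagosome fusion genes, such as the tethering HOPS subunits, had 3 positive and 12 negative log2 fold changes (median −0.53). None of them had an unadjusted p under 0.05 by the edgeR test (lowest 0.253, Vps41). Nutrient-sensing kinases had 6 positive and 9 negative ones (median −0.13). Receptors of selective autophagy outside the 36 had 6 and 8 (median −0.05), other phagophore genes 5 and 9 (median −0.26), and MiT and FoxO transcription factors 5 and 2 (median 0.11).

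Foxo3, a transcription factor that activates several autophagy genes, was 1 of these and was at 85.8, 124, 339, 227 and 218 normalised CPM in aged libraries 1 to 5 and at 90.6 ± 18.2 in young ones (log2 fold change 1.13 ± 0.33, unadjusted p = 0.00287, adjusted p = 0.311, edgeR).

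Also among the 4 were Mcl1, a Bcl2 relative that binds Beclin 1, at 717 ± 286 against 418 ± 116 normalised CPM, and Sec62, a translocon protein and receptor for autophagy of the endoplasmic reticulum, at 383 ± 122 against 252 ± 36.6. The log2 fold change of Mcl1 was 0.78 (unadjusted p = 0.00908, adjusted p = 0.454, edgeR). That of Sec62 was 0.60 (unadjusted p = 0.0162, adjusted p = 0.565, edgeR). Without aged libraries 1, 3 and 4 the log2 fold changes were 0.90 for Foxo3, 0.51 for Mcl1 and 0.16 for Sec62. Tfeb was low in both groups, at 2.37 ± 2.30 against 4.43 ± 2.75, and Mtor, the kinase that holds autophagy in check when nutrients are present, at 2.60 ± 5.56 against 7.58 ± 8.33 normalised CPM (log2 fold changes −0.90 ± 1.73 and −1.54 ± 2.10). Among aged libraries Mtor was at 12.6 in aged 1 and at most 0.383 in the others. Among young libraries it was at 0 in young 1 and young 2, at 0.137 in young 6 and at least 7.7 in the others. Values near 0 thus occurred in both groups. Without aged replicate 1, the only aged library above 0.383, the log2 fold change of Mtor was −6.04 (edgeR adjusted p = 0.771).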

How the data were processed

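RNA sequencing libraries of brain perivascular macrophages (5 aged, 7 young; groups from the titles) were analysed from 1 deposited table of 17358 genes. The authors deposited estimated counts per gene and, without a named unit, values read here as FPKM because they scale with the count divided by library total and by a length, which differs between libraries for some genes (in the median gene by 1.11 times over libraries with at least 100 counts). The submitters' processing notes name RSEM 1.2.12, DESeq2 1.4.5, HISAT2 2.0.4 and Bowtie2 2.2.5 without order, and the build GRCm38 (mm10). No source used here gives the gene annotation. Per the labels' protocols, cDNA was made by SMART-seq2 with oligo-dT and Nextera XT, which does not mark strand and carries no molecular identifiers, so amplified copies count as separate reads and floors cover counting error only.

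Estimated counts (88.2% to 90.6% whole per library) were rounded. Aged and young libraries were compared with edgeR 4.0.16 in R 4.3.3: TMM, filterByExpr, robust quasi-likelihood test in legacy mode, Benjamini-Hochberg adjustment over all 9550 genes tested, threshold 0.05. SEs were derived from the F statistic. The script was tested on simulated counts with the same dispersion for every gene and no library effects. That test checked whether set fold changes were recovered. It gives no error rate or power for these libraries, whose values vary in other ways. Alternatives were DESeq2 1.42.0, edgeR with legacy=FALSE, no count filter, limma 3.58.1 on log2(FPKM + 1), the replicate number as a block, each library left out, and aged libraries 1, 3 and 4 left out. The last of these compares only 2 aged libraries with the 7 young ones.

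The members, lists and alternatives were chosen with earlier results of these data known. All members are named. Library values are printed for members with an unadjusted p under 0.05, LC3 and GABARAP genes, cargo receptors and the most abundant member of each other role. Library values of Atg101, Atg12, Ulk1 and Foxo3, and single values of other members, were added after they were seen. Of the other list, genes with an unadjusted p under 0.05 are named, with Tfeb and Mtor, except 1 that is not reported here. Names of the list that are older symbols of a listed gene (3) were not in the table.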

Additional observations from a re-analysis of the deposited data

Results flagged for a closer look

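In 14 of the 72 sets formed by 36 members and 2 age groups, the highest library stood far from the rest of its group by Dixon's criterion. Chance meets it in about 1 of 20 sets of normally distributed values, but over all genes tested it was met in 16.8% of sets, and in 17.1% for the 35 tested members, so the members' share was near that of all genes. Values are normalised CPM, with the nearest other library of the group in each sentence.

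Among initiation and lipid kinase genes, Atg13 was at 21.83 in aged 2 (nearest 0.718) and at 47.23 in young 2 (nearest 8.75). Atg101 was at 17.98 in aged 5 (nearest 4.32). Pik3r4 was at 31.12 in aged 4 (nearest 6.46). Ambra1 was at 5.296 in aged 2, with 0 in the other aged libraries.

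Among membrane growth genes, Atg9a was at 12.82 in young 6 (nearest 3.53). Atg2a was at 31.53 in aged 3 (nearest 4.39) and at 25.38 in young 3 (nearest 10.1). Wipi1 was at 33.67 in young 2 and at 0.1674 in aged 5, with 0 in the other libraries of each group.

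Among conjugation genes and receptors, Atg4d was at 15.12 in aged 1 (nearest 3.85) and Atg16l2 at 28.79 in aged 5 (nearest 1.73). Optn was at 61.2 in aged 5 (nearest 13.7). Tax1bp1 was at 192.1 in young 1 (nearest 107.8), the only one of these 11 members present in all 12 libraries.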

How the results depend on the processing

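No autophagy member passed under any of the 18 alternatives (lowest adjusted p 0.181, Ambra1 without aged replicate 2, by edgeR), and 14 of the 35 tested members kept the sign of their log2 fold change in all of them, Atg3, Becn1, Map1lc3b and Gabarapl2 included. The number of genes called over the whole table, 1, was 121 with DESeq2, 13 with no count filter, 38 with legacy=FALSE, 6 with limma on FPKM, 0 without aged libraries 1, 3 and 4, and between 0 and 75 on leaving out single libraries (75 without aged replicate 2, 3 without aged 5, 2 without young 1, at most 1 without any other). The replicate number as a block called 1 gene and no member. Same-numbered libraries did not deviate together (correlations from −0.04 to 0.09), so the numbers were not taken to pair them, and no aged library correlated best with its own number. Signs turned with the replicate block for Ulk1 2.22, Uvrag −0.41, Atg9a −3.35, Atg2a −0.73, Atg4b 0.097, Atg16l1 0.77, Atg16l2 −4.81, Optn −1.38, Nbr1 0.051 and Tax1bp1 −0.013. Without aged libraries 1, 3 and 4 they turned for Ulk1 0.15, Atg13 0.30, Pik3r4 −0.51, Atg14 0.46, Ambra1 0.41, Atg2a −1.42, Atg16l1 0.94, Map1lc3a 0.32, Gabarap −0.14, Sqstm1 0.22 and Tbk1 −0.098. With limma on FPKM, where 39.2% of all genes were positive in place of 49.5% and the median of all genes was −0.17 in place of −0.01, they turned for Pik3c3 0.057, Uvrag −0.14, Atg2a −0.085, Atg16l2 −0.18, Gabarap −0.092 and Optn −0.071, and with DESeq2 for Gabarap −0.016. Leaving out single libraries turned 16 members, with these ranges of log2 fold change: Atg13 −5.28 to 0.78, Atg14 −1.34 to 0.33, Atg16l2 −3.72 to 0.85, Atg2a −2.39 to 1.35, Atg4d −2.16 to 0.48, Atg5 −0.53 to 0.013, Atg9a −0.45 to 1.65, Gabarap −0.092 to 0.085, Map1lc3a −0.48 to 0.013, Nbr1 −0.48 to 0.074, Optn −1.32 to 1.59, Pik3c3 −0.86 to 0.28, Pik3r4 −1.50 to 1.14, Sqstm1 −0.52 to 0.031, Ulk1 −0.85 to 0.43 and Uvrag −0.21 to 0.51. The cause was not tested. The SE of the log2 fold change ran from 0.21 (Gabarap) to 2.23 (Atg13), so for members such as Atg13 even a large change was not detectable in these libraries.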
